A study of Homo sapiens with 148 samples.

Results

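The PAX genes other than PAX4, namely PAX1, PAX2, PAX3, PAX5, PAX6, PAX7, PAX8 and PAX9, were followed across a pancreatic differentiation of H9 cells, an established human embryonic stem cell (hESC) line. They were chosen by gene name from a table of mean expression per stage, in which each of the 8 has 1 entry among 49085 gene names. The table covers 6 stages, each with 2 RNA-seq replicates among the 148 samples of the series, and all cells were wild-type H9. The stages were undifferentiated hESCs, definitive endoderm (DE, day 4), primitive gut tube (PGT, day 7), pancreatic progenitors (PP, day 14), a stage labelled PH whose name and day the sources do not explain, and organoids of stem-cell-derived β cells (SC-β, day 35). Spheroids first received Activin A with CHIR99021 and Y27632, and then KGF. From day 7 KGF was joined by the hedgehog inhibitor Sant1, retinoic acid and Y27632. PdBU was added on days 7 and 8 alone, and LDN193189 on day 7 alone. From day 14 the medium held retinoic acid, XXI, betacellulin, Alk5i II and T3, with Sant1 in its first feeds. The last phase held Alk5i II and T3. Expression is given as TPM (length-scaled transcript units with the same total in every sample), which divides reads by transcript length and so allows levels of different genes to be set side by side. Each value is the authors' mean of the replicates, without an SD or a test, so a difference between stages is given by its size and was not compared with a replicate spread.

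PAX proteins are transcription factors that bind DNA through a paired domain and direct the formation of organs in the embryo. They fall into 4 subgroups by sequence. PAX1 and PAX9 lack a homeodomain, PAX2, PAX5 and PAX8 keep a partial one, and PAX3 with PAX7 and PAX4 with PAX6 carry a complete one. In the pancreas PAX4 and PAX6 are the members known for their part in endocrine cells, whereas the others are known mainly from the nervous system, neural crest, somites, kidney, thyroid, thymus and B cells.

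The labels were first set beside genes that define them. POU5F1, the pluripotency factor, stood at 1449 TPM in hESCs, and SOX17, an endoderm factor, at 96.1 TPM in DE. In PP the progenitor factors PDX1 and NKX6-1 were present at 3.17 and 2.204 TPM. INS, the insulin gene, reached 298 TPM in SC-β organoids, where GCG, the glucagon gene, was at 2793 TPM. In PH PDX1 was at 0.0173 TPM, NKX6-1 at 0.256 TPM and INS at 6.86 TPM.

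The sum of the 8 genes was low until PGT and higher from PP on, where PAX3 and PAX8 made up most of it. The summed mean level was 0.448 TPM in hESCs, 6.60 in DE and 3.20 in PGT, then 76.9 in PP, 215 in PH and 125 in SC-β organoids. PAX6 gave 66.6% of the sum in DE. No member reached 1 TPM in hESCs, 2 did so in DE and 1 in PGT, then 4 in PP, 6 in PH and 6 in SC-β organoids. Of the members, 6 (all but PAX1 and PAX9) had their highest level in PH, and those latter genes had it in SC-β organoids. These are bulk samples, so more cells of a type and more RNA per cell cannot be told apart.

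**Figure D1:**
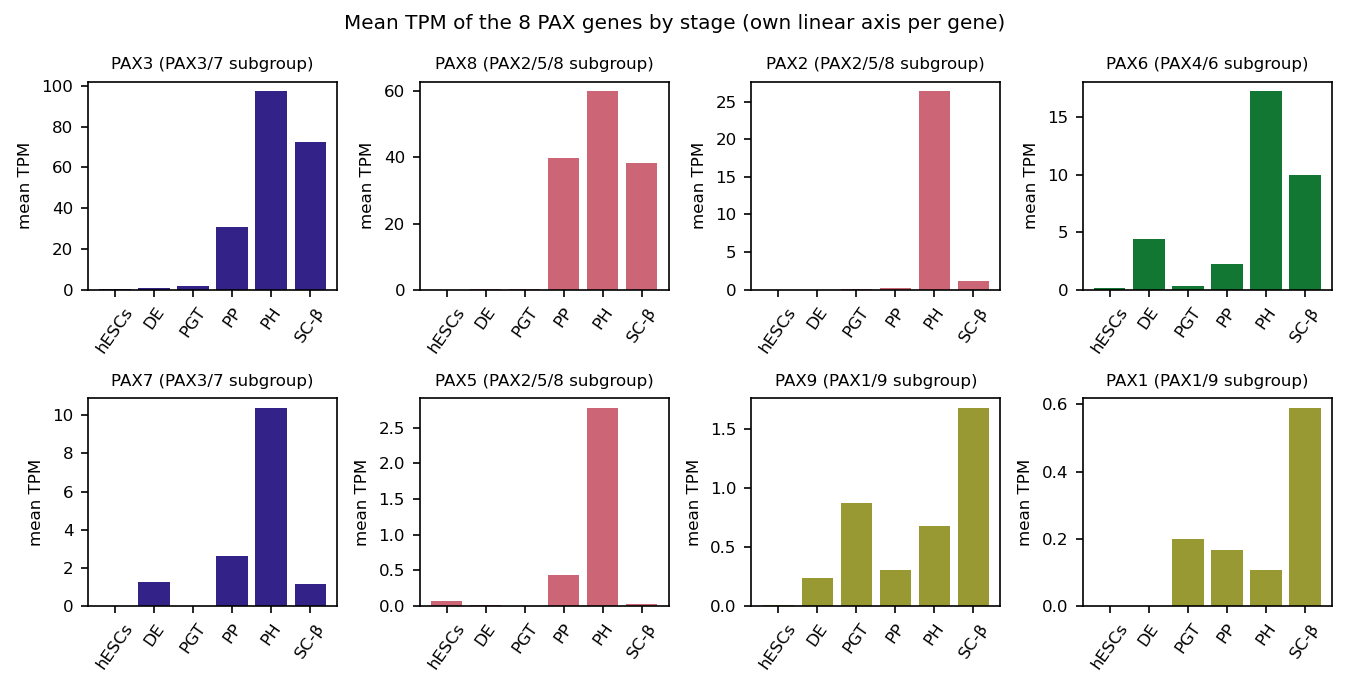
Bars give the authors' mean TPM (y axis, linear from 0, scaled to each gene) at the 6 stages (x axis) for each of the 8 PAX genes, coloured by subgroup. PAX3 and PAX8 are high at PP, PH and SC-β, PAX2 and PAX5 are high at PH, PAX6 has a second, smaller peak of 4.40 TPM at DE, and PAX1 reaches 0.590 TPM at most.

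**Figure D2:**
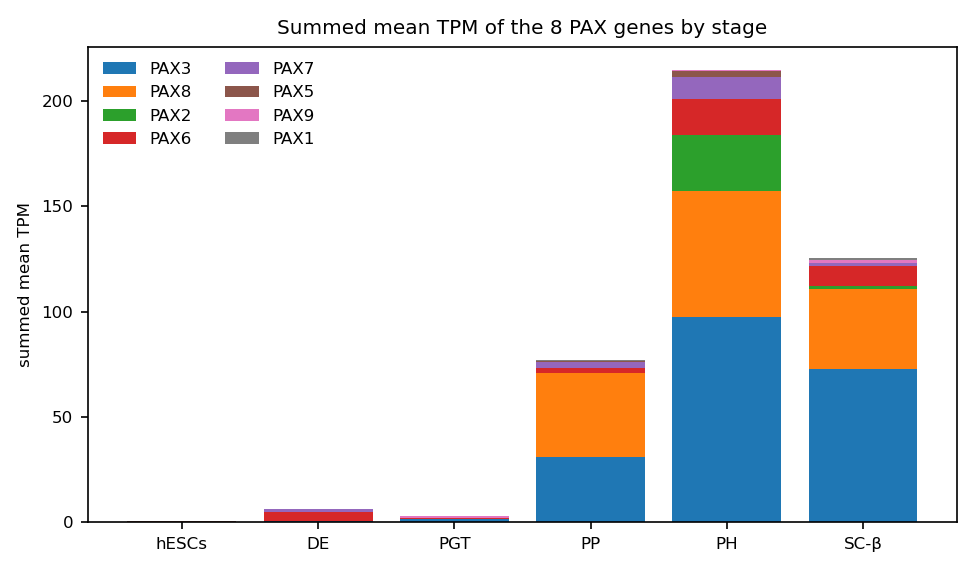
Stacked bars give the mean TPM of the 8 PAX genes (y axis, linear from 0) at each stage (x axis), 1 colour per gene. The sum is 0.448 TPM in hESCs and 215 TPM in PH, and PAX3 and PAX8 make up most of the bars at PP, PH and SC-β.

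PAX3, which acts in the dorsal neural tube, neural crest and muscle progenitors, was the most abundant member in PH and SC-β organoids. Its mean TPM was 0.214 in hESCs, 0.622 in DE and 1.58 in PGT, then 30.9 in PP, 97.3 in PH and 72.6 in SC-β organoids. PP was 19.6 times PGT, and PH exceeded 98.8% of all gene names at that stage. PAX3 supplied 40.2% of the summed PAX level in PP, 45.3% in PH and 58.0% in SC-β organoids. In PP its level was above that of PDX1.

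PAX8, a factor of the thyroid, kidney and hindbrain region, was the most abundant member in PP. It was listed at 0 in hESCs and stood at 0.0833 TPM in DE and 0.233 in PGT, then 40.0 in PP, 59.98 in PH and 38.2 in SC-β organoids. The step from PGT to PP was 171-fold in TPM, the largest of any member with a level above 0 in PGT. This ratio rests on a PGT level under 1 TPM, which cannot be given an error. The level differed less among PP, PH and SC-β organoids, with PH at 1.501 times PP and SC-β organoids at 0.956 times PP. PAX8 gave 52.0% of the summed PAX level in PP, 27.9% in PH and 30.5% in SC-β organoids.

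PAX3 and PAX8 both lie on the minus strand of chromosome 2, PAX3 (ENSG00000135903.20) at chr2:222199887-222298998 and PAX8 (ENSG00000125618.18) at chr2:113215997-113278921 on GRCh38, the hg38 build of the files. Their levels had the highest correlation of any pair of members over the stages (Pearson's r of log2(TPM + 1) = 0.985, n = 6 stages that share 1 series of libraries). The 250 bases before their annotated starts, from RefSeq on GRCh38.p14, are shown because these genes moved together. They are set beside those of PAX2, which had a different course, and PAX6, the islet factor. This choice of windows was made after the levels were seen. Capitals mark matches on either strand to the CCAAT box (CCAAT), the TATA box core (TATAAA), a nuclear receptor half-site (AGGTCA) and a homeodomain core (TAATTA), and no matches overlap.
PAX3, chr2:222298999-222299248, minus strand: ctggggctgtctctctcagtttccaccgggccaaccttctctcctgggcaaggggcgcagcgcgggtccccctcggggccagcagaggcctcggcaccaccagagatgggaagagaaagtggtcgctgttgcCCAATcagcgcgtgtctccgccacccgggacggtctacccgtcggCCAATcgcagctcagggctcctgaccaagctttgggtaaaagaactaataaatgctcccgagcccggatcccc
PAX8, chr2:113278922-113279171, minus strand: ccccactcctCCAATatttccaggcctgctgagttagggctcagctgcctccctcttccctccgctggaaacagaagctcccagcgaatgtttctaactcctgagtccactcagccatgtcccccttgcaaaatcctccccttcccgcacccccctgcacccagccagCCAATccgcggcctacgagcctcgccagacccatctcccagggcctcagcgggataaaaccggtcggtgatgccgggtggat
PAX2, chr10:100735146-100735395, plus strand: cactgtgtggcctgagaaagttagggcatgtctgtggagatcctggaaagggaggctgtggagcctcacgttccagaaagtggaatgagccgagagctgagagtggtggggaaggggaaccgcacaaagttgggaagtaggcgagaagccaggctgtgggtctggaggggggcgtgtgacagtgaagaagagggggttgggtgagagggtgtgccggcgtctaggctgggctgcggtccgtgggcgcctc
PAX6, chr11:31817962-31818211, minus strand: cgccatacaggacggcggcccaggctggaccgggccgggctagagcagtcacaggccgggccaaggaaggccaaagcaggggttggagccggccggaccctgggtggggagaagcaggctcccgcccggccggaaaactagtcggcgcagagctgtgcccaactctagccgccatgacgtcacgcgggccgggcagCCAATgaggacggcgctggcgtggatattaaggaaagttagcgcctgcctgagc
CCAAT, the letters of the CCAAT box, occurred 2 times before PAX3, with first bases 118 and 73 bases before the start, and 2 times before PAX8, at 240 and 82 bases. It occurred 1 time before PAX6, at 54 bases, and not in the PAX2 window. PAX7, whose window is not shown, also had it 1 time, on the other strand at 128 bases. The r of PAX7 with PAX3 was 0.761, so CCAAT was not limited to the pair that moved together. RefSeq gave a window for 7 of the 8 members at the gene start. In windows that run to 50 bases after the start 4 of these 7 hold CCAAT, against 34.6% of 35116 promoters of the same length. That share counts promoters with 1 or more copies, and no share was computed for 2 copies. TATAAA was found in 1 of the 7 (11.5% of all promoters), in PAX5, and AGGTCA, a nuclear receptor half-site, and TAATTA, a homeodomain core, in 0 of the 7 (13.8% and 4.84% of all). The GC box letters GGGCGG, not capitalised, were found in 2 of the 7, PAX5 and PAX6 (45.0% of all). The same 300 bases held 21 CpG dinucleotides at PAX3, 13 at PAX8, 14 at PAX2 and 24 at PAX6, where the median promoter held 14. RefSeq lists other starts for PAX2 (2 windows in all) and PAX6 (9 in all), and which start was used was not measured here.

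Genes on the opposite strand of both loci had values of their own. PAX8-AS1, a non-coding RNA that overlaps PAX8, was at 0.0318 TPM in hESCs, 0.0163 in DE and 0.0411 in PGT, then 4.65 in PP, 7.11 in PH and 6.01 in SC-β organoids. CCDC140, which overlaps PAX3, was listed at 0 until PGT and stood at 1.40 TPM in PP, 6.75 in PH and 17.6 in SC-β organoids. Whereas PAX3 was lower in SC-β organoids than in PH, CCDC140 was higher. Whether strand was used in counting is not stated, and without strand reads of overlapping genes cannot be told apart. PSD4, whose annotated end lies 6600 bases from PAX8, was already at 4.80 TPM in DE and 10.2 in PGT, where PAX8 was at or under 0.233 TPM, and at 10.5 in PP, 2.48 in PH and 19.0 in SC-β organoids.

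PAX2, the relative of PAX8 known from the kidney, optic stalk and midbrain-hindbrain region, was high in PH and low in the other 5 stages. It was listed at 0 in hESCs and DE and stood at 0.0228 TPM in PGT, 0.227 in PP, 26.4 in PH and 1.09 in SC-β organoids. PH was 116 times PP and 24.3 times SC-β organoids. PAX5, the third gene of the subgroup and the factor of B cell identity, was also highest in PH, at a lower level. Its mean TPM was 0.0664 in hESCs, 0.00967 in DE and 0 in PGT, then 0.431 in PP, 2.78 in PH and 0.0310 in SC-β organoids. PH was 6.44 times PP and 89.5 times SC-β organoids. A divisor under 1 TPM, as in PP for both genes and in SC-β organoids for PAX5, cannot be given an error. Such ratios are therefore rough. PAX2 and PAX5 had r = 0.945 over the 6 stages. Of this subgroup, PAX8 alone was above 5 TPM in PP and in SC-β organoids.

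PAX6, a factor of eye, neural and islet cells that takes part in the transcription of hormone genes, was higher in DE than in hESCs or PGT and highest in PH. Its mean TPM was 0.160 in hESCs, 4.40 in DE and 0.295 in PGT, then 2.27 in PP, 17.2 in PH and 9.93 in SC-β organoids. It made up 66.6% of the summed PAX level in DE and 7.92% in SC-β organoids. PH was 7.60 times PP and 1.74 times SC-β organoids, so the level in the endocrine organoids was not the highest of the series. PAX6 (ENSG00000007372.25) lies at chr11:31784779-31817961 on the minus strand. It overlaps ELP4, which ran between 11.1 and 21.3 TPM with its lowest value in PH, and PAUPAR, a non-coding RNA at or under 0.340 TPM in every stage.

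PAX7, the relative of PAX3 known from dorsal neural tube, neural crest and muscle stem cells, was also present in DE. Its mean TPM was 0.00149 in hESCs, 1.25 in DE and 0 in PGT, then 2.60 in PP, 10.4 in PH and 1.14 in SC-β organoids. PH was 3.99 times PP and 9.10 times SC-β organoids. In SC-β organoids PAX3 stood at 74.7% of its highest level and PAX7 at 10.99%.

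PAX9 and PAX1, factors of the sclerotome, the pharyngeal pouches and the thymus, stayed low. PAX9 was at 0.00651 TPM in hESCs, 0.236 in DE and 0.872 in PGT, then 0.302 in PP, 0.679 in PH and 1.68 in SC-β organoids. PAX1 was listed at 0 in hESCs and DE and stood at 0.200 TPM in PGT, 0.166 in PP, 0.108 in PH and 0.590 in SC-β organoids. Together they gave 33.4% of the small PAX sum in PGT and 1.81% of the sum in SC-β organoids. Their r was 0.910 over the 6 stages, whereas that of PAX1 with PAX5 was -0.14, the lowest of any pair. PAX1 lies 191594 bases from NKX2-2 and 862516 bases from FOXA2, the endoderm factor that stood at 39.6 TPM in DE and 48.7 in PGT.

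**Figure D3:**
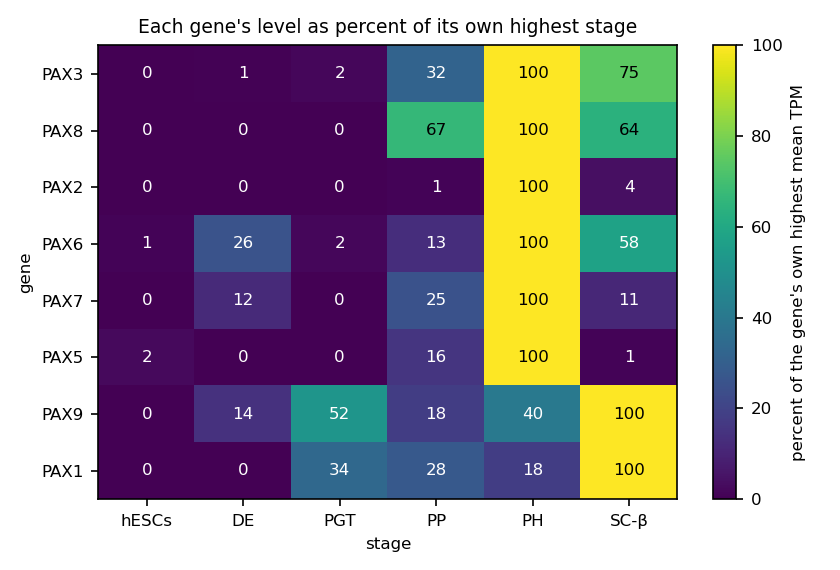
Colours and numbers give each PAX gene's mean TPM (rows) at each stage (columns) as a percent of the gene's own highest stage. PAX2, PAX5 and PAX7 stand at 4.12%, 1.12% and 10.99% at SC-β, where PAX3, PAX8 and PAX6 stand at 74.7%, 63.7% and 57.6%.

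Stages were compared by log2((TPM + 1) / (TPM + 1)), and a gene was counted past 2-fold. On this scale changes of low genes are understated, and no ratio is printed for a gene listed at 0 in either stage, although it is counted. From hESCs to DE, 2 of 8 members were higher, PAX6 with a log2 ratio of 2.22 and PAX7 with 1.17, and 0 were lower, where 12.9% of all 49085 names were higher and 2.55% lower. Many names are hardly expressed at any stage, and among the 28202 names at 1 TPM or more in some stage the shares were 22.5% and 4.43%, so the members' 2 of 8 was near that background. From hESCs to PGT, 1 member was higher, PAX3 with 1.09, and 0 were lower, against 10.1% and 4.34% of names. The PAX3 value was 1.00, just under the threshold, after stages were rescaled by their median ratio. From DE to PGT, 0 members were higher and 2 were lower, PAX6 with -2.06 and PAX7, which was listed at 0 in PGT, against 2.3% of names higher and 4.92% lower.

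From PGT to PP 4 of 8 members were higher and 0 lower, against 2.74% and 3.25% of names, or 4.77% and 5.65% of those at 1 TPM or more in some stage. The log2 ratio was 5.05 for PAX8, 3.63 for PAX3 and 1.33 for PAX6, and PAX7 was higher from 0. PAX2 had 0.26, PAX1 -0.04 and PAX9 -0.52. The median over the 8 members was 0.93, and over all names 0. PAX4, the excluded member, had 1.00.

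In PH against PP, 5 of 8 members were higher and 0 lower, against 5.14% and 5.73% of names, or 8.94% and 9.97% of those at 1 TPM or more in some stage. The log2 ratio was 4.48 for PAX2, 2.48 for PAX6, 1.66 for PAX7, 1.62 for PAX3 and 1.40 for PAX5. PAX8 had 0.57, PAX9 0.37 and PAX1 -0.07, and the median of the 8 was 1.51. PAX4 went the other way, from 1.09 TPM in PP to a listing at 0 in PH, and was at 2.25 TPM in SC-β organoids. PH was therefore the stage with the highest level of 6 members and with no listed PAX4.

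From PP to SC-β organoids, 3 of 8 members were higher and 0 lower, against 10.6% and 0.939% of names, or 18.5% and 1.63% of those at 1 TPM or more in some stage. The log2 ratio was 1.74 for PAX6, 1.21 for PAX3 and 1.04 for PAX9. The calls of PAX3 and PAX9 ended under the rescaling, with 0.94 and 0.88, and that of PAX3 also when stage totals were taken without the 100 most abundant names, with 0.97. PAX2 had 0.77, PAX1 0.45, PAX8 -0.06, PAX5 -0.47 and PAX7 -0.75. The median of the 8 was 0.61, where that of all names was 0.16.

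PP, PH and SC-β organoids were also set against hESCs. In PP 4 members were higher and 0 lower, against 7.98% and 4.06% of names. In PH 6 were higher and 0 lower, against 12.1% and 8.35%, with a log2 ratio of 6.34 for PAX3, 3.97 for PAX6, 3.51 for PAX7 and 1.82 for PAX5. In SC-β organoids 6 were higher and 0 lower, against 22.2% and 3.7% of all names, or 38.6% and 6.44% of the names at 1 TPM or more in some stage, with 5.92 for PAX3, 3.24 for PAX6, 1.41 for PAX9 and 1.10 for PAX7. Under the rescaling the count in SC-β organoids was 4 of 8, since the PAX7 value was 0.97 and PAX2, which is listed at 0 in hESCs, was also no longer past 2-fold. These comparisons share their hESC column and are not independent of one another.

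**Figure D4:**
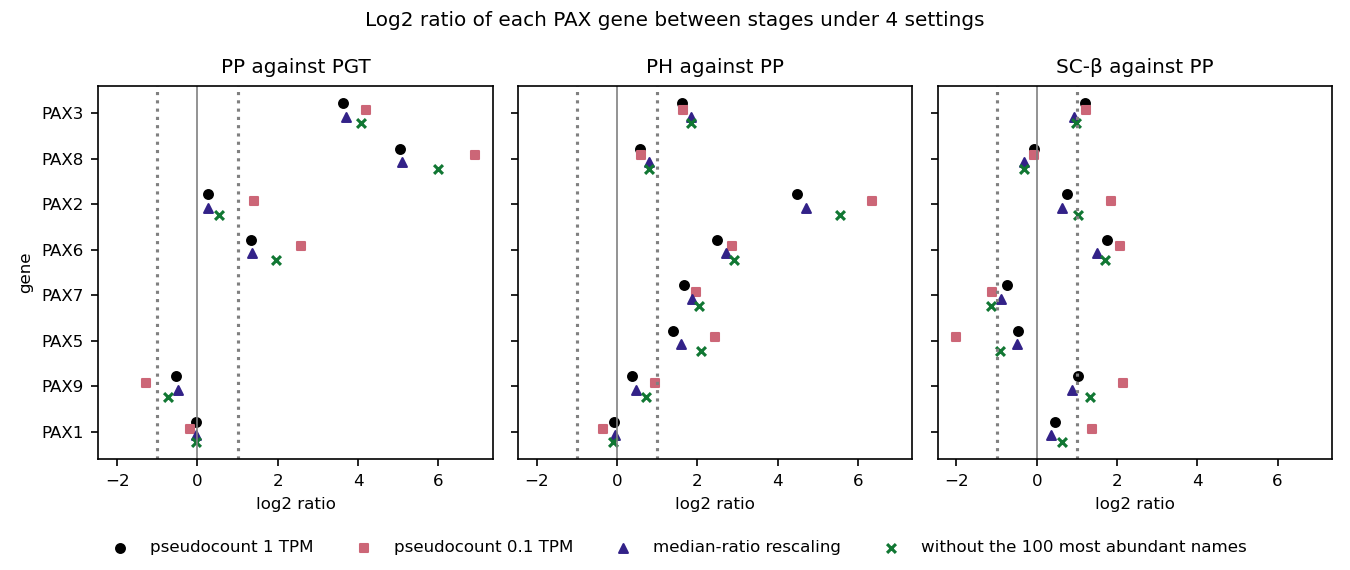
Points give the log2 ratio (x axis) of each PAX gene (y axis) between PP and PGT, PH and PP, and SC-β and PP, with a symbol for each of 4 settings, and dotted lines mark 2-fold. A gene listed at 0 in either stage has no point. PAX8 (5.05) and PAX3 (3.63) stand out at PP, PAX2 (4.48) at PH, and the SC-β points of PAX3 and PAX9 straddle the 2-fold line.

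Sine oculis homeobox proteins such as SIX2 and SIX4 and the EYA and DACH proteins act beside PAX factors in a regulatory network used in eye, ear, kidney and muscle. Of 11 genes for these partners, 6 were past 2-fold higher and 0 lower from PGT to PP, against 2.74% and 3.25% of names. Their median log2 ratio was 1.44. SIX2 had the largest step, from 0.834 to 16.9 TPM, and EYA1 went from 5.73 to 26.1 TPM. In PH against PP 2 were higher, DACH1 and DACH2, and 3 lower, SIX2, SIX4 and EYA1, against 5.14% and 5.73% of names. The median was -0.22. DACH1 had 13.2, 27.7 and 41.4 TPM in PP, PH and SC-β organoids. From PP to SC-β organoids 3 were higher and 1 lower, against 10.6% and 0.939% of names. EYA4 was among the former, at 3.86 and 40.3 TPM. DACH2, at 29.1 TPM, was the single one of the 11 with its highest level in PH.

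**Figure D5:**
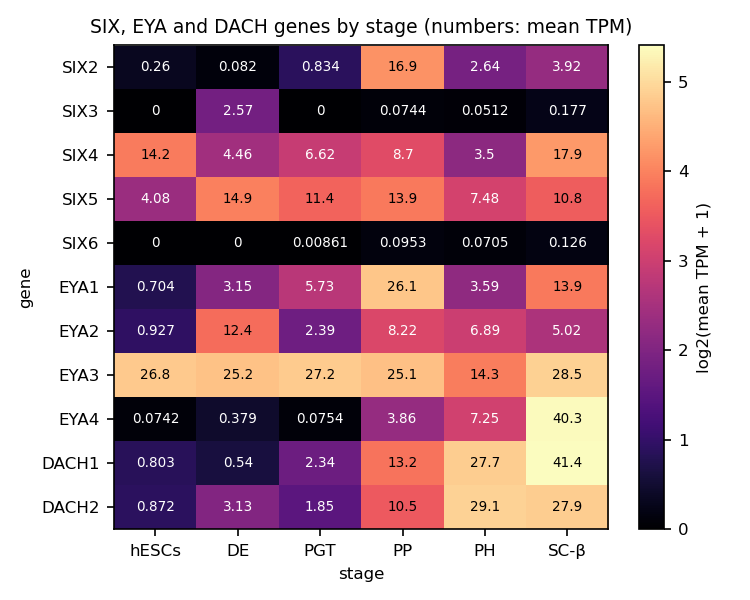
Colours give log2(mean TPM + 1) and numbers give mean TPM for 11 partner genes, SIX2 to SIX6, EYA1 to EYA4, DACH1 and DACH2 (rows), at the 6 stages (columns). EYA4 (40.3 TPM) and DACH1 (41.4 TPM) are highest at SC-β, and SIX2 (16.9 TPM) and EYA1 (26.1 TPM) at PP.

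Marker lists of the tissues in which these PAX genes are known were then read beside them. Of all names, 2.74% were higher and 3.25% lower from PGT to PP, and 5.14% and 5.73% from PP to PH. From PP to SC-β organoids the shares were 10.6% and 0.939%. Over names at 1 TPM or more in some stage, the shares in this order were 4.77% and 5.65%, 8.94% and 9.97%, and 18.5% and 1.63%. Of 10 neural crest and dorsal neural tube genes, where PAX3 and PAX7 act, 7 were higher and 0 lower from PGT to PP (median log2 ratio 2.41). ZIC1 had 0.00456, 17.2, 173 and 73.7 TPM in PGT, PP, PH and SC-β organoids, and TFAP2B had 3.83, 37.0, 37.4 and 5.42 TPM. In PH against PP 1 was higher and 3 lower, SOX10 among the latter with 8.69 and 0.318 TPM. From PP to SC-β organoids 3 were higher and 4 lower, the latter SOX10, FOXD3, TFAP2B and NGFR, while PAX3 was higher. The summed level of the list was 80.7 TPM in PGT, 250.3 in PP, 339 in PH and 299 in SC-β organoids. ZIC1 alone gave 173 TPM of the sum in PH, against 17.2 in PP, so the sum does not stand for most of the list. Of 13 neural progenitor genes, 6 were higher and 2 lower from PGT to PP, and 9 were higher and 0 lower from PP to PH (median 1.85). HES5, an effector of Notch signalling, had 0.0882 TPM in PP, 110 in PH and 1.51 in SC-β organoids, and DCX, a gene of young neurons, had 11.995, 169 and 24.4 TPM. Their part in the PAX values was not tested.

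The defining genes of the other tissues were read in the same way. Of all names, 5.14% were higher and 5.73% lower from PP to PH, and 2.74% and 3.25% from PGT to PP. Of 8 midbrain-hindbrain boundary genes, where PAX2, PAX5 and PAX8 act, 1 was higher (GBX2, 3.75 to 31.3 TPM) and 1 lower (FGF8, 25.5 to 0.421 TPM) from PP to PH, and EN1 and EN2 stayed at or under 1.49 TPM in every stage. Of 10 kidney genes, 2 were higher in PH than in PP, LHX1 with 0.525 and 92.1 TPM and RET with 0.323 and 4.95 TPM, 4 were lower, and WT1 was at or under 1.94 TPM throughout. Of 6 thyroid genes, 0 were higher and 2 lower in PP than in PGT, the step at which PAX8 appeared, and TG, the thyroglobulin gene, was at or under 1.56 TPM in every stage. Of 8 B cell genes in the table, MS4A1 was listed at 0 in PH, where PAX5 was highest. EBF1 was the single gene of the list past 2-fold there, with 0.757 TPM in PP and 30.0 in PH. In SC-β organoids, however, EBF1 was higher still, at 61.8 TPM, where PAX5 was at 0.0310 TPM. Of 7 muscle genes, 2 were higher and 1 lower in PH than in PP, LBX1 with 24.4 TPM in PH from a listing at 0 among the former, and MYF5 was listed at 0 in every stage but DE, where it had 4.31 TPM and PAX7 had 1.25. Of 9 eye genes, 2 were higher and 1 lower in PH, and RAX was listed at 0 there.

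For PAX1 and PAX9, 8 sclerotome genes and 7 pharyngeal and thymus genes were used. From PP to SC-β organoids 10.6% of all names were higher and 0.939% lower. Of the names at 1 TPM or more in some stage, 18.5% were higher and 1.63% lower. Of the sclerotome genes 4 were higher and 0 lower in SC-β organoids than in PP, TWIST1 among them with 9.40 and 89.7 TPM. Of the pharyngeal and thymus genes 1 was higher, near those shares, and 2 lower. FOXN1, the thymus factor, was at or under 0.274 TPM in every stage. Of 18 endocrine islet genes, beside which PAX6 is usually read, 13 were higher and 0 lower in SC-β organoids than in PP (median log2 ratio 1.82), where PAX6 was higher too. In PH against PP 1 was higher, CHGB, and 3 lower, against 5.14% and 5.73% of all names. PAX6 went from 2.27 to 17.2 TPM at that step. The islet list's summed level was 1013 TPM in PGT, where TTR alone had 943 TPM, then 410 in PP, 282 in PH and 5510 in SC-β organoids. A few genes made up most of the last sum, GCG with 2793, TTR with 1229 and CHGA with 805 TPM. In PH, where PAX6 was highest, the neural progenitor genes summed to 646 TPM, their highest level of the 6 stages.

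The genes most like each member were sought by Pearson's r of log2(TPM + 1) over the 6 stages among 16425 names that reached 5 TPM in some stage, for the 5 members that did so. With 6 points, many names reach a high r, and the values are a description. PAX8 was most like its antisense neighbour PAX8-AS1 (r = 0.997), followed by HOXA2, HOXA-AS2, HOTAIRM1 and SORBS2. HOXA2 had 16.6, 36.1 and 29.2 TPM in PP, PH and SC-β organoids, after at most 0.0346 TPM before. PAX3 was most like ERCC5 (r = 0.999), a gene that ran only from 17.2 to 31.7 TPM, then RFTN2, HOXA-AS2, NR2F1 and HOXB3. HOXB3 had 31.5 TPM in PP, 135 in PH and 53.4 in SC-β organoids. PAX2 was most like CCDC184, HMP19, P2RX3, HES5 and ELAVL3, of which HES5 is named above. PAX6 was most like ZNF382 (r = 0.999), TTBK2, LACE1, AC122718.1 and STAT5B. PAX7 was most like RP11-61K9.3 (r = 0.994), RP11-15A1.3, F2R, SOX21-AS1 and PCDH8. These names depended on the setting, and without PH between 0 and 1 of each 5 stayed in the list.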

How the data were processed

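RNA was measured by RNA-seq in 12 samples, 2 per stage, of the 148 samples in the series, and the other assays were not used here. The authors aligned reads to hg38 with HISAT2 2.2.0, estimated TPM with StringTie 2.1.6, averaged the replicates and deposited 1 mean TPM per gene and stage. The annotation is not given in the sources used here. The study's methods name ribosomal RNA removal by RiboMinus, and the labels a TruSeq Stranded mRNA kit. Read counts and the depth behind each mean are unknown from the table, so no interval, floor or test was computed.

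The 50451 entries fall under 49085 names, and the entries of 231 repeated names were summed. A pseudocount of 1 TPM and a threshold of 2-fold were used. Named genes were the 8 members, PAX4, PAX8-AS1, the genes nearest to or overlapping a member in GENCODE version 44, the 12 fixed lists, and the 5 names most like each member at 5 TPM or more. The 6 genes that define the stage labels were added after the values were seen. CRYAA, MYMK and VPREB1 were not matched. Some genes of the lists are not reported here, and the list counts and medians were computed without them. The members and lists were chosen with earlier results of these data known. Alternatives were a pseudocount of 0.1 TPM, a 4-fold threshold, median-ratio rescaling over 13938 names at 1 TPM or more in every stage, totals without the 100 most abundant names, the highest entry of a repeated name, names at 1 TPM or more in some stage, Spearman's rho and leaving out PH. The calculations were tested on simulated data. Python 3.11.15, numpy 2.4.6, pandas 2.3.3 and matplotlib 3.10.9 were used.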

Additional observations from a re-analysis of the deposited data

How the results depend on the processing

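No paired analysis was possible because the deposited columns hold means over the numbered replicates, and leaving out a replicate was not possible for the same reason. None of the 147 recomputed log2 ratios of members changed sign, 124 kept their side of 2-fold, 5 lost it and 18 gained it. The counts of members listed next are those that changed. With a pseudocount of 0.1 TPM, the members higher against hESCs were 4 in DE, 4 in PGT and 8 in PP. They were 8 in PH and 7 in SC-β organoids. Those higher at other steps were 3 in PGT against DE, 6 in PP against PGT and 5 in SC-β organoids against PP. The members lower were 1 in PP against PGT and 2 in SC-β organoids against PP. With a 4-fold threshold, those higher against hESCs were 1 in DE, 0 in PGT and 2 in PP, then 5 in PH. For SC-β organoids the count was 3. At other steps 2 were higher in PP against PGT, 2 in PH against PP and 0 in SC-β organoids against PP. In PGT against DE 1 was lower. Median-ratio rescaling left 0 members higher in PGT against hESCs and 1 in SC-β organoids against PP. It took the count in SC-β organoids against hESCs from 6 to 4. Against hESCs it lowered the median of all names at 1 TPM or more in every stage by 0.02 to 0.47. In PH against PP that median went from -0.19 to 0.009, the largest rise. In SC-β organoids against PP it went from 0.25 to -0.004. Without the 100 most abundant names, the members higher against hESCs were 2 in PGT, 7 in PH and 7 in SC-β organoids. In PP against PGT 5 were higher, and in SC-β organoids against PP 1 was lower. Over the 28202 names at 1 TPM or more in some stage, the background shares ran from 4.00% to 38.6% higher and from 1.63% to 14.5% lower. Of the 5 names most like PAX2, PAX3, PAX6, PAX7 and PAX8, Spearman's rho kept 0, 3, 4, 1 and 0, a pseudocount of 0.1 TPM kept 3, 2, 3, 1 and 1, and leaving out PH kept 0, 1, 1, 0 and 0. The cause of these moves was not tested. With 1 mean per stage, a level under 1 TPM and a listing at 0 cannot be given an error, and the unexplained PH stage carries the highest value of 6 members.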

Other observations

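Genes whose names hold PAX because their proteins bind PAX factors were not low in hESCs as the PAX genes were. PAXBP1 stood at 51.4 TPM in hESCs, 111 in DE and 112 in PGT, then 84.5 in PP, 108 in PH and 120.3 in SC-β organoids, and PAXIP1, a subunit of a histone methyltransferase complex, at 15.1, 31.7, 22.5, 17.8, 12.6 and 21.4 TPM in the same order. Near PAX9, NKX2-8 lies 74953 bases away and had its highest level in PGT, at 4.75 TPM, where PAX9 had 0.872 TPM, and was listed at 0 in PH. Near PAX7, KLHDC7A went from 4.98 TPM in hESCs to 0.0890 in PH, the stage at which PAX7 was highest. SLC25A21, which overlaps PAX9, was between 0.283 TPM in PH and 3.03 TPM in PP.

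In SC-β organoids LMX1A and WNT1, genes of the dorsal midline and midbrain, stood at 32.2 and 10.96 TPM, against 0.822 and 0.509 TPM in PP, while OTX2, a forebrain and midbrain factor, had 229 TPM in DE against 0.0805 in SC-β organoids. UNCX, a sclerotome and neural gene, had 24.9 TPM in PH and 0.279 TPM in SC-β organoids.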
